A study of Mus musculus with 4 samples.

Results

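The cytosolic ribosomal protein genes encode the proteins of the small and the large subunit of the ribosome outside mitochondria. They were chosen by gene symbol as every gene whose symbol begins with Rpl or Rps and a digit, together with Rplp0, Rplp1, Rplp2, Rpsa and Fau, leaving out symbols that end in -ps and the Rps6k kinases. This rule found 87 of the 32285 genes in the count matrices. No measured value entered it, but it was written with earlier results of these data known. By symbol, 34 of them belong to the small subunit and 52 to the large subunit, and the remaining gene, Rps19bp1, carries a matching symbol but encodes a protein that binds Rps19 and is not a ribosomal protein.

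The matrices came from single-nucleus RNA sequencing of the hippocampus of mice, in which each droplet is meant to hold 1 nucleus and each RNA molecule is counted once through its unique molecular identifier (UMI). There were 4 libraries, each from 1 mouse with the hippocampi of both hemispheres pooled. The WT libraries (replicates 1 and 2) came from wild-type mice, and the KI libraries (replicates 1 and 2) came from littermates that carried the R87C substitution on 1 allele of Cyfip2 (Cyfip2+/R87C), a subunit of an actin-regulating complex. All mice were on the C57BL/6N background and in postnatal week 28, and no other allele or treatment is named for either genotype. The substitution is in the germ line, so every cell type of a KI mouse carried it. The treatment label of KI replicate 2 reads R88C, while its protocol text reads R87C, and its title placed it with KI here. The sex of the mice is not among the labels, and the substitution cannot be read from counts per gene.

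Ribosomal protein mRNAs are among the most abundant mRNAs of the cytoplasm, and many copies of them are held there while only newly made copies are in the nucleus. They come from many separate genes spread over the genome, and each protein goes into the ribosome once, apart from the paired stalk proteins. Their mRNAs begin with a run of pyrimidines, the 5′ terminal oligopyrimidine (TOP) motif, through which the mTOR pathway controls their translation. In a suspension of nuclei, cytoplasmic mRNA set free from broken cells is taken up into every droplet, and ribosomal protein mRNA is commonly a part of it. UMIs from such free RNA and UMIs from the nucleus itself carry the same barcode and cannot be told apart molecule by molecule in these counts. Their shares were not tested, and the values below are given per nucleus and as CPM, the share of the UMIs of the library or class in the usual per-million scaling, so that both readings can be seen.

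The promoters of the genes were read for 2 short motifs that are known for them, the pyrimidine run and the site of ETS family transcription factors. In the RefSeq table of the GRCm38.p6 assembly, 70 of the 87 genes had an entry of 250 bases before to 50 bases after the start of transcription. The letters CTTTCC stood on the transcribed strand in 27 of the 70 windows (38.6%) against 16.0% of 26955 windows of other genes, and on the other strand in 18.6% against 16.1%. The letters CCGGAAG stood on the transcribed strand in 17 of the 70 (24.3%) against 5.35% of the others, and on either strand in 26 of the 70 (37.1%) against 9.86%. The end of the first motif and the start of the second can share the letters CC, and a match is a description of these letters and not of a bound site. The following stretches of 30 bases show the match, in capitals, for the members whose values stand out below: Rpl6 and Rpl26 in neurons, Rps27 as the member with the highest fold change of KI over WT in all nuclei, Rpsa as the one with the lowest in all nuclei and in DG and CA1 neurons, and Rps21 as the one with the highest in astrocytes, each among members of at least 10 CPM.
Rpl6, chr5:121204521-121204550, plus strand: cgctgccttagttctCTTTCCcgtcttgca
Rpl6, chr5:121204502-121204531, plus strand: ttgcttatagaCCGGAAGccgctgccttag
Rpl26, chr11:68901579-68901608, plus strand: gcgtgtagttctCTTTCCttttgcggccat
Rpl26, chr11:68901559-68901588, plus strand: aacttacagaaCCGGAAGtcgcgtgtagtt
Rps27, chr3:90213630-90213659, minus strand: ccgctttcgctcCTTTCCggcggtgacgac
Rpsa, chr9:120127517-120127546, plus strand: aaaagctacggaCTTTCCacgctcgctccc
Rps21, chr2:180257342-180257371, plus strand: agtaccctgacCCGGAAGcacttaccgagg
In Rps27 the match began at base 2 of the transcript and in Rpl26 at base 26, in Rpl6 it began at base 36, and in Rpsa it lay 237 bases before the start. For Rps21 the printed match lay 26 bases before the start, and the ETS letters began at base 5 in Rpl26 and at base 13 in Rpl6. Rps20 and Rps27a had no entry. Rpl13, also described below, had neither CTTTCC nor CCGGAAG on either strand, and Rps27 had no CCGGAAG. Rps21 had CTTTCC, and Rpsa had CCGGAAG, on the other strand. All 87 genes were matched by identifier to the GENCODE M21 annotation of GRCm38 and lay on 20 chromosomes. The mouse genome also holds many silent copies of these genes, of which 300 are annotated with a -ps symbol and 5 are listed in the files, so the split of reads between a gene and its copies is uncertain for every member.

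Of 55640 deposited barcodes, 52032 nuclei were kept after leaving out 345 with fewer than 500 genes or with at least 5% of UMIs from mitochondrially encoded genes and 3263 (5.90%) marked as doublets. The 4 libraries held 66272968 to 73353838 UMIs in these nuclei, and pairs of libraries shared 35 to 58 barcodes. Clusters were built without the ribosomal protein genes and the mitochondrially encoded genes and were named by marker genes of hippocampal cell types, which gave 13 classes with at least 20 nuclei in every library, while 11693 nuclei (22.5%) stayed unnamed. In the classes named first here, 8 and 7 of 8 markers were raised in the clusters of dentate gyrus (DG) granule neurons, 10 of 10 in astrocytes, 9 of 9 in oligodendrocytes and 9 of 9 in microglia. DG granule neurons were held mainly by 1 cluster in WT (4096 and 3112 nuclei, with 197 and 613 of KI) and by another in KI (2275 and 1603 nuclei, with 209 and 175 of WT), so a comparison of genotypes within this class is one between these clusters. The share of UMIs from Malat1, a nuclear long non-coding RNA, was 8.90% and 8.71% in WT replicates 1 and 2 and 13.7% and 12.2% in KI replicates 1 and 2, and it was higher in both KI than in both WT libraries in all 13 classes.

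All 87 genes had at least 1 UMI, and 83 had at least 1000 over the 4 libraries. Together they took 0.388%, 0.320%, 0.295% and 0.305% of the UMIs of WT replicates 1 and 2 and KI replicates 1 and 2. A nucleus held 18.0, 17.1, 16.7 and 17.5 of their UMIs in the same order, 17.3 ± 0.579 (SD, n = 4). In single nuclei the median was 15 or 16, with the 5th percentile at 7 or 8 and the 95th at 29 or 30, and 2 nuclei, both of KI replicate 1, held none. The 4 libraries were thus close to each other in the count per nucleus and less so in the share.

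Among the members with the most UMIs were Rpl6 (29021), Rpl13 (23806), Rpl27a (19429), Rpl41 (19147) and Rplp1 (18569). UMIs count the 3′ ends of molecules and were not divided by transcript length, so these are counts and not an order of transcription. Per nucleus, Rpl6 had 0.563, 0.610, 0.465 and 0.588 UMIs in WT replicates 1 and 2 and KI replicates 1 and 2, and KI replicate 1 was the lowest. Among members with at least 1000 UMIs the median was 0.199 and the lowest 0.0247 per nucleus, so no single member was seen in every nucleus. Of the stalk proteins, which recruit translation factors to the large subunit, Rplp1 had 0.355 ± 0.0300 UMIs per nucleus (SD, n = 4), Rplp2 had 0.184 ± 0.00839 and Rplp0, the base of the stalk, had 0.0869 ± 0.00556. The 2 members made as fusions with a ubiquitin-like protein or ubiquitin, Fau and Rps27a, had 0.321 ± 0.0247 and 0.283 ± 0.0142. The members of lowest count were Rps27rt (235 UMIs over all libraries) and the paralogs Rpl3l (142), Rpl39l (8) and Rpl10l (2), of which Rpl3l is known from muscle and Rpl39l and Rpl10l from the testis.

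Several members come in pairs of near relatives, and the pairs differed widely. Rpl22l1 held 59.1% of the UMIs of its pair with Rpl22, Rpl36al held 63.5% of the pair with Rpl36a, and Rpl7l1 held 44.1% of the pair with Rpl7. Rps27l, a p53-inducible relative of Rps27, held 9.36%, and Rps27rt held 1.84% of its pair with Rps27. Rpl3l, Rpl39l and Rpl10l held 0.896%, 0.145% and 0.0295% of theirs. Reads that match both partners could be split between them, so these shares are uncertain where sequences are near-identical.

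Across cell classes, the number of ribosomal protein UMIs in a nucleus varied less than the total number of UMIs (see the plot of ribosomal protein UMIs by class). CA3 pyramidal neurons, which held the most UMIs per nucleus in every library but KI replicate 2, where mossy cells held more, had 19.6 and 21.3 ribosomal protein UMIs per nucleus in WT replicates 1 and 2 and 21.0 and 19.9 in KI replicates 1 and 2. Oligodendrocytes, the myelin-forming glia, had 14.9, 11.5, 10.8 and 11.5 in the same order, with WT replicate 1 above the other 3. The counts of the 2 classes did not overlap, but all UMIs per nucleus were 8353 to 10711 in CA3 neurons against 1546 to 1618 in oligodendrocytes.

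**Figure D1:**
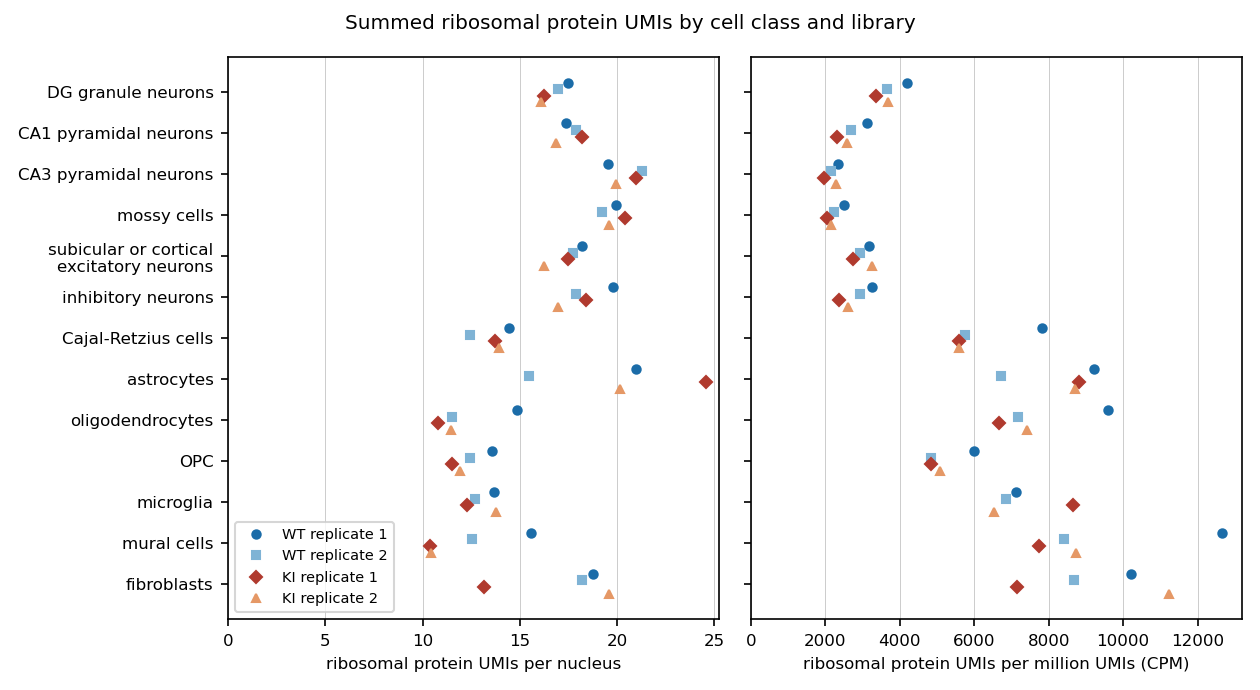
Summed UMIs of the 87 ribosomal protein genes by cell class, as UMIs per nucleus (left) and as CPM (right), with 1 symbol per library. Per nucleus the classes lie between 10.4 and 24.5, while in CPM CA3 neurons lie at 1960 to 2341 and mural cells at 7737 to 12657.

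The other neurons lay close together. DG granule neurons had 17.5, 16.9, 16.2 and 16.1 ribosomal protein UMIs per nucleus in WT replicates 1 and 2 and KI replicates 1 and 2. CA1 pyramidal neurons had 17.4, 17.9, 18.2 and 16.8. Inhibitory neurons had 19.8, 17.9, 18.4 and 17.0. These 3 classes overlapped with each other, as did mossy cells (19.8 ± 0.510, SD, n = 4) with CA3 neurons (20.4 ± 0.832) and subicular or cortical excitatory neurons (17.4 ± 0.843) with CA1 neurons (17.6 ± 0.588). Cajal-Retzius cells, small neurons of the marginal zone with 1847 to 2491 UMIs per nucleus, had 13.6 ± 0.864 and were in the range of glia.

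Among the remaining classes, microglia (13.1 ± 0.733 ribosomal protein UMIs per nucleus, SD, n = 4), oligodendrocyte precursor cells (OPC, 12.4 ± 0.901), mural cells of vessels (12.2 ± 2.44) and oligodendrocytes (12.2 ± 1.83) were the 4 lowest and did not differ beyond their spread. Astrocytes stood apart from the other glia with 21.0, 15.5, 24.5 and 20.2 in WT replicates 1 and 2 and KI replicates 1 and 2, the widest spread of any class. Mitochondrially encoded UMIs, which come from the cytoplasm, were also higher in astrocytes, at 7.70, 6.12, 14.2 and 14.2 per nucleus, and in fibroblasts, at 9.48 to 16.6, than in the other 11 classes, at 1.29 to 4.05. Their part in the ribosomal protein count of astrocytes was not tested. Fibroblasts had 18.7, 18.2, 13.1 and 19.6 ribosomal protein UMIs per nucleus, with KI replicate 1 below the other 3.

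The share of these genes was low in CA3 neurons, which held many UMIs, and high in oligodendrocytes, which held few, but the 2 measures did not run against each other in every class, since astrocytes had the highest CPM of KI replicate 1 (8804) at more UMIs per nucleus than oligodendrocytes. In CA3 neurons they made up 2341, 2158, 1960 and 2279 CPM in WT replicates 1 and 2 and KI replicates 1 and 2, and in oligodendrocytes 9590, 7180, 6673 and 7414. Within a library, the highest class was 6.61 to 7.97 times the lowest in all UMIs per nucleus, 1.55 to 2.36 times in ribosomal protein UMIs per nucleus and 4.02 to 5.41 times in ribosomal protein CPM. The same ratio was 8.71 to 11.1 for mitochondrially encoded UMIs per nucleus and 5.59 to 11.8 for Malat1. For Ttr, a transcript of the choroid plexus that is often found as free RNA in brain suspensions, it was 2.95 to 6.13, and for other transcripts taken as such comparators it was 6.01 to 52.3 (Ptgds), 8.54 to 27.1 (Cst3) and, in the 2 libraries with a UMI in every class, 7.15 and 95.4 (globin). For the summed translation factors whose mRNAs carry the TOP motif, the ratio was 2.01 to 3.34. Over the 13 classes, the ribosomal protein genes thus had the narrowest range per nucleus of these measures in every library. Ttr and globin each had 0.0385 UMIs per nucleus in mossy cells of KI replicate 2. Such low counts widen their ratios by counting error. Endothelial nuclei, too few to form a class, were not included and had 37.8 to 71.6 ribosomal protein UMIs per nucleus.

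**Figure D2:**
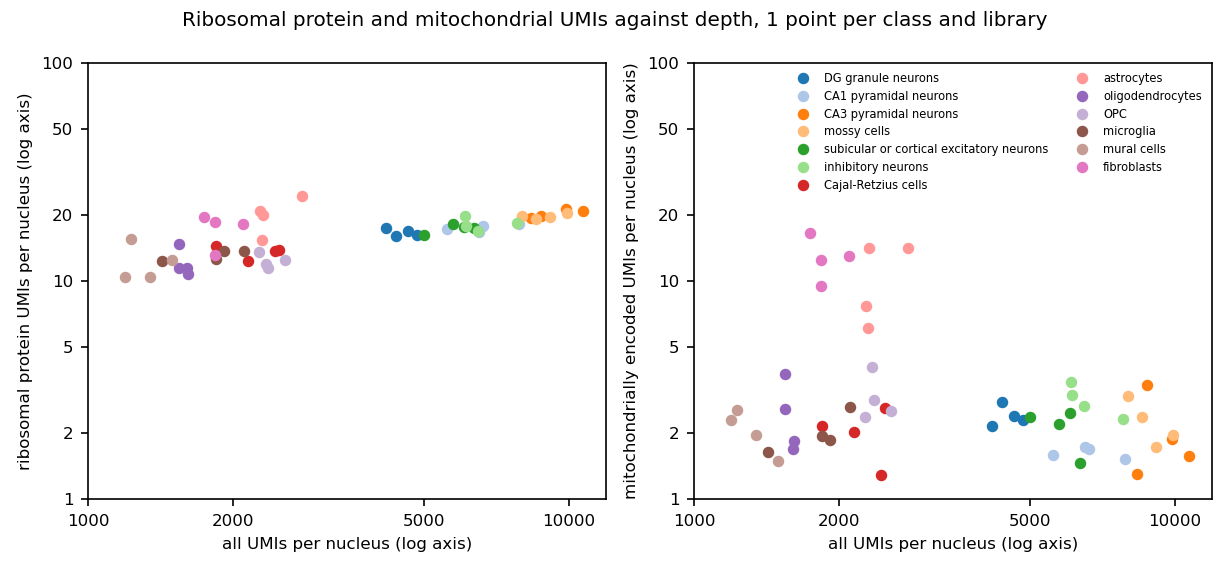
Ribosomal protein UMIs per nucleus (left) and mitochondrially encoded UMIs per nucleus (right) against all UMIs per nucleus, with 1 point per class and library and log axes. From mural cells at 1193 to CA3 neurons at 10711 UMIs per nucleus the left panel stays between 10.4 and 24.5, while the right panel runs from 1.29 to 16.6 with astrocytes and fibroblasts on top.

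Other genes of translation did not show so narrow a range. For each gene with at least 1000 UMIs, the mean UMIs per nucleus over the 4 libraries were taken in every class, and the highest class was divided by the lowest. The median of this ratio was 2.16 over 82 ribosomal protein genes (10th to 90th percentile 1.70 to 3.47), Rpl7l1 being left out because it had no UMI in mural cells. It was 9.11 over 10798 other genes (3.81 to 41.2) and 8.27 over 3659 other genes with UMI totals in the same range as the middle of the members (5638 to 15994). The 28 ribosome assembly factors, a list of genes that act in ribosome production, had a median of 6.19, and 75 mitochondrial ribosomal protein genes had 4.73. The 17 translation factors whose mRNAs carry the TOP motif, such as Eef1a1 and Tpt1, came nearest with 3.02. A gene with few UMIs has a wider ratio by counting error alone, and these medians are descriptions without a test.

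**Figure D3:**
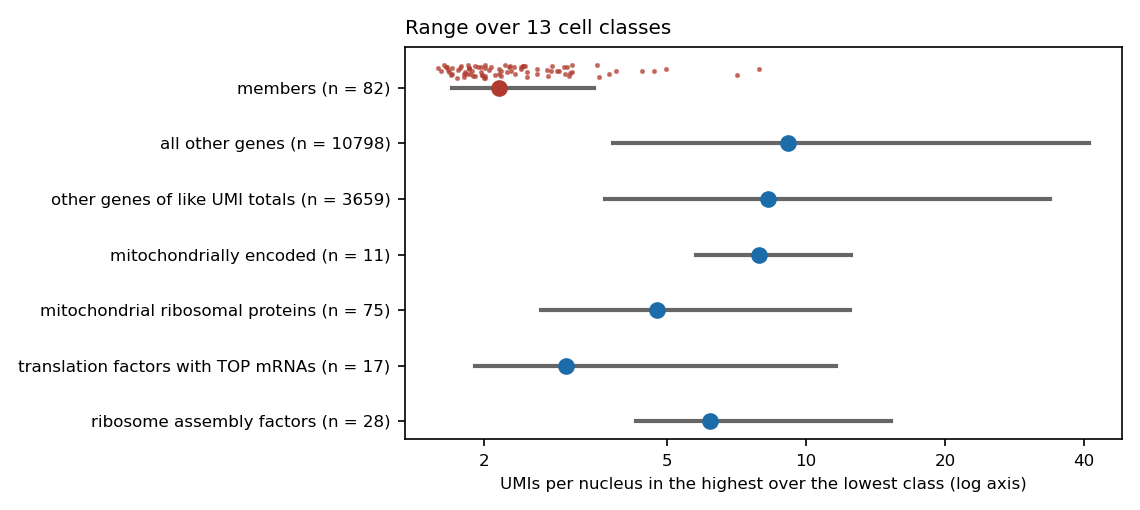
Ratio of the highest to the lowest of 13 classes in UMIs per nucleus, per gene, on a log axis. Large points are medians, bars run from the 10th to the 90th percentile and small red points are the 82 ribosomal protein genes, whose median of 2.16 lies below that of every other list.

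Among the members with the narrowest range across classes were Rpl8 (1.59), Rps16 (1.61), Fau (1.66) and Rplp2 (1.66). The widest were Rps19bp1 (7.89), Rps27l (7.06), Rps20 (4.97), Rps27 (4.68) and Rpl6 (4.39), and in all 5 the lowest class was mural cells, the class with the fewest nuclei (20 to 30 per library). The 2 genes at the top of this order are the non-ribosomal Rps19bp1, with 1542 UMIs, and the paralog Rps27l, with 1291. Across members, the ratio had a Spearman rho of -0.145 with the UMI total and of 0.0387 with the intronic length of the gene over 82 members, and the UMI total had a rho of -0.135 with intronic length over 83. The points share the same 4 libraries, and the correlations are descriptions.

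Depth within a class was examined in the same way. When the nuclei of a class and library were split by UMIs into 4 equal sets, the top set of DG, CA1, CA3 and inhibitory neurons held 2.83 to 3.92 times the UMIs of the bottom set but 1.41 to 1.76 times the ribosomal protein UMIs. In DG neurons of WT replicate 1, for example, the bottom set had 2228 UMIs and 13.9 ribosomal protein UMIs per nucleus and the top set 6847 and 22.9. In oligodendrocytes the ratios were 2.53 to 2.90 for UMIs and 1.34 to 1.42 for ribosomal proteins in 3 libraries, and 2.14 for ribosomal proteins in WT replicate 1, where mitochondrially encoded UMIs were 4.88 times higher in the top set. In astrocytes the ratios were 2.76 to 3.72 for UMIs and 1.71 to 3.63 for ribosomal proteins, beside 2.57 to 9.15 for mitochondrially encoded UMIs. In neurons the ribosomal protein count thus grew less than depth did, and in astrocytes of KI replicate 1 it grew more, by 3.63 against 3.36.

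The barcodes outside the 13 classes differed by kind. The 345 barcodes left out by the filters had 48.8 and 24.8 ribosomal protein UMIs each in WT replicates 1 and 2 and 13.5 and 15.4 in KI replicates 1 and 2, out of 696 to 1217 UMIs in all, so that ribosomal proteins made up 17132 to 40109 CPM there. Their medians were close to each other, at 11.5, 12, 10 and 11 ribosomal protein UMIs per barcode, so the means of the WT libraries lay far above their typical barcode. Ttr, the choroid plexus transcript, had 59.8 UMIs per barcode in WT replicate 1 and 0.12 to 1.59 in the other 3 libraries, and its part in the ribosomal protein count was not tested. Mitochondrially encoded UMIs, one of the measures that set these barcodes aside, were 17.6 to 52.0 each. Endothelial cells, with 14 to 39 nuclei per library and so below the minimum for a class, had 37.8, 71.6, 46.2 and 67.6 ribosomal protein UMIs per nucleus and 11.7 to 42.4 mitochondrially encoded ones. Doublets held 22.03 to 24.7 ribosomal protein UMIs per barcode and unnamed clusters 19.1 to 21.1.

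The makeup of the ribosomal protein UMIs was next compared between classes. Of 730 pairs of a member and a class with at least 100 UMIs, 670 had a share of the ribosomal protein UMIs within 0.8 to 1.25 times that in all nuclei. The small subunit held 40.5% ± 0.192 (SD, n = 4) of the ribosomal protein UMIs in all nuclei, and 39.2% to 41.8% as the mean of a class.

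Single members departed further (see the plot of member shares). Rpl6, a large-subunit protein, had 0.829 and 0.995 UMIs per nucleus in CA3 neurons of WT replicates 1 and 2 and 0.763 and 0.833 in those of KI replicates 1 and 2. In astrocytes it had 0.395, 0.315, 0.396 and 0.334, below CA3 neurons in every library. Relative to all nuclei, its share was 1.30 (range over 4 libraries 1.24 to 1.36) in CA3 neurons, 0.56 (0.49 to 0.60) in astrocytes, 0.63 (0.57 to 0.69) in oligodendrocytes and 0.72 (0.62 to 0.88) in microglia. Every library had Rpl6 above 1 in CA3 neurons and below 1 in these 3 glial classes. Rpl7l1, a nucleolar relative of Rpl7, had the same order, with a share of 1.32 (1.16 to 1.41) in CA3 neurons and 0.51 (0.41 to 0.57) in oligodendrocytes.

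Rpl26, which lies at the exit of the large subunit's tunnel, had 0.326, 0.439, 0.425 and 0.365 UMIs per nucleus in CA1 neurons and 0.220, 0.191, 0.188 and 0.176 in inhibitory neurons, in WT replicates 1 and 2 and KI replicates 1 and 2. The 2 classes did not overlap and held similar totals of ribosomal protein UMIs. Its share was 1.56 (1.35 to 1.69) in CA1, 1.27 (1.13 to 1.47) in CA3 and 0.75 (0.72 to 0.80) in inhibitory neurons. Rpl13 was highest relative to all nuclei in OPC, at 1.56 (1.31 to 1.72). Rplp1 ran the other way from Rpl6, with 1.33 (1.202 to 1.48) in astrocytes, 1.29 (1.23 to 1.37) in oligodendrocytes and 0.81 (0.73 to 0.87) in CA3 neurons, and Rps29 had 1.31 (1.27 to 1.37) in astrocytes. Rpl22 had 0.64 (0.51 to 0.78) in astrocytes and 1.21 (1.08 to 1.37) in CA3 neurons. Rpl7l1, Rpl15, Rpl22, Rpl26, Rps27 and Rps29 were chosen for this description of the makeup after their values were seen.

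**Figure D4:**
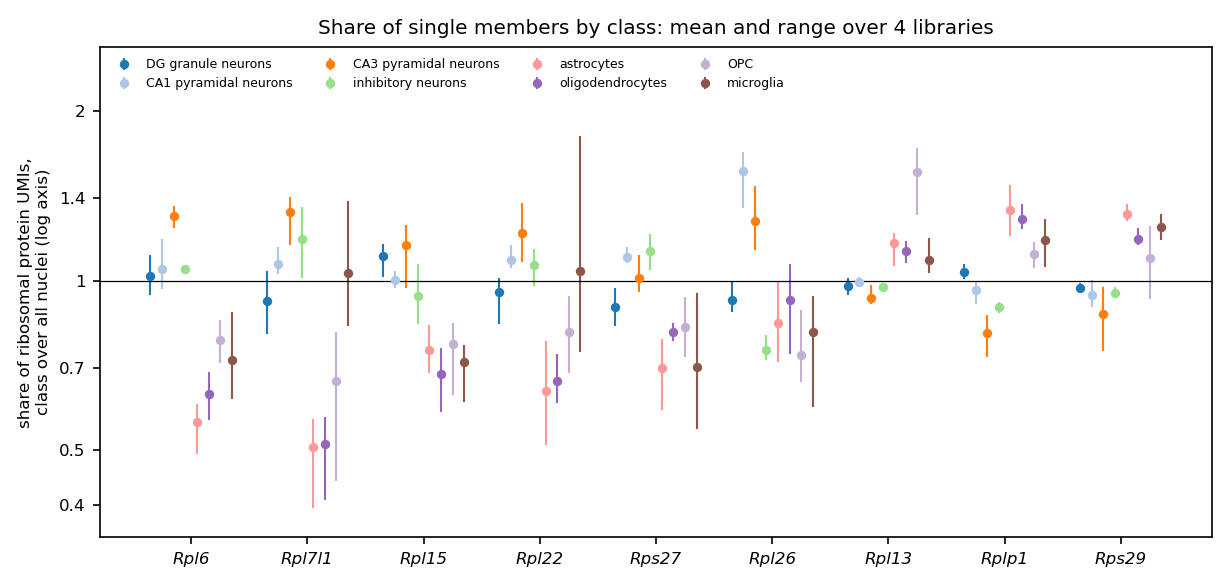
Share of 9 members among all ribosomal protein UMIs of a class, divided by their share in all nuclei of the same library, on a log axis. Points are means and bars the range over 4 libraries, and Rpl6 is above 1 in CA3 neurons (1.30) and below 1 in astrocytes (0.56) and oligodendrocytes (0.63).

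The makeup was also summarised over all members. The chi-square statistic of the member by class table per degree of freedom, which is about 1 where all classes share 1 makeup, was 3.22 to 5.30 over 6 large classes and 2.595 to 3.49 over 4 neuron classes. For mitochondrially encoded genes it was 1.46 to 3.44 and 0.885 to 1.39. For mitochondrial ribosomal protein genes it was 3.84 to 6.72 and 3.75 to 4.63, and for the TOP translation factors 6.01 to 11.2 and 3.21 to 7.15. The statistic grows with the number of UMIs, which differed between the lists, so it does not rank them by how much their makeup varied.

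KI was compared with WT on counts summed over the nuclei of each library, with edgeR's quasi-likelihood test and Benjamini-Hochberg adjustment over all genes tested, at an adjusted p of 0.05. No ribosomal protein gene passed the test in all nuclei or in any of the 13 classes. In all nuclei, 85 members were tested and 0 called, where 0.889% of all genes were called, and at an unadjusted p of 0.05 there were 8 members against 24.3% of all genes. With DESeq2, 1 member was called in all nuclei, Rpsa, where it called 8.42% of all genes.

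The summed level depended on the scale. Ribosomal protein UMIs per nucleus overlapped between genotypes in all nuclei (17.6 ± 0.651 in WT, 17.1 ± 0.552 in KI, SD, n = 2 each). In CPM they were 3877 and 3197 in WT replicates 1 and 2 and 2950 and 3045 in KI replicates 1 and 2, so both KI libraries lay below both WT libraries. Leaving Malat1 out of the total brought the values to 4255, 3502, 3416 and 3467, and WT replicate 2 then lay near both KI libraries. For 2 libraries against 2, an exact permutation test cannot give a p below 0.333. The all-nuclei values also depend on the class makeup of each library, because ribosomal protein CPM differed between classes. Unnamed clusters held 2322 and 2356 nuclei in WT replicates 1 and 2 and 2647 and 4368 in KI replicates 1 and 2. The part of class makeup in the all-nuclei differences, summed or of single members, was not tested. By class, KI lay below WT per nucleus in DG, subicular or cortical and oligodendrocyte nuclei, OPC and mural cells and overlapped in the other 8 classes, and in CPM it lay below in CA1, mossy, inhibitory and Cajal-Retzius neurons and overlapped in the other 9.

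Most members lay on the same side of 0 in all nuclei. Their median log2 fold change (KI over WT, after TMM scaling) was -0.19, beside 0.01 over all genes tested, and 80 of 85 were below 0. Both KI libraries were below both WT libraries in CPM for 55 of the 85 members, where 34.3% of all genes were so. This depended on WT replicate 1: without it the median was -0.05 with 27 of 85 above 0, and without WT replicate 2 it was -0.33. In the kept nuclei WT replicate 1 also held the most Ttr, 137 CPM against 13.3 in WT replicate 2 and 65.0 and 32.0 in KI replicates 1 and 2, and the most globin, 62.7 CPM against 21.6, 5.92 and 17.1. The other comparators named above differed from each other. In nuclei of the named classes, Cst3 had 199, 165, 131 and 175 CPM in WT replicates 1 and 2 and KI replicates 1 and 2. Ptgds had 178, 142, 474 and 301, with both KI libraries above both WT libraries. The part of these transcripts in the difference was not tested. The TOP translation factors had a median of -0.20 in all nuclei, with 0 of 17 called, the assembly factors -0.07 with 0 of 30, the mitochondrial ribosomal protein genes -0.08 with 0 of 78, and the 16 genes of the mTOR pathway -0.09 with 0 called.

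Rpsa, the laminin receptor and small-subunit protein, had the lowest fold change in all nuclei. It measured 54.6 and 42.9 CPM in WT replicates 1 and 2 and 29.7 and 36.3 in KI replicates 1 and 2. Both KI libraries were below both WT libraries, by -0.51 on the log2 scale (SE 0.153) at an edgeR adjusted p of 0.133, and the DESeq2 adjusted p was 0.0448. The next lowest were Rpl12, with 27.6, 22.6, 18.1 and 19.3 CPM (-0.38, SE 0.135, edgeR adjusted p = 0.171), and Rpl36al, with 30.8, 25.0, 18.7 and 22.9 (-0.37, SE 0.1503, edgeR adjusted p = 0.203). At the other end was Rps27, a small-subunit zinc-finger protein, with 43.9, 43.3, 52.5 and 41.5 CPM and overlapping genotypes (0.16, SE 0.147). Rpl17 (0.08) and Rps18 (0.03) also overlapped.

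**Figure D5:**
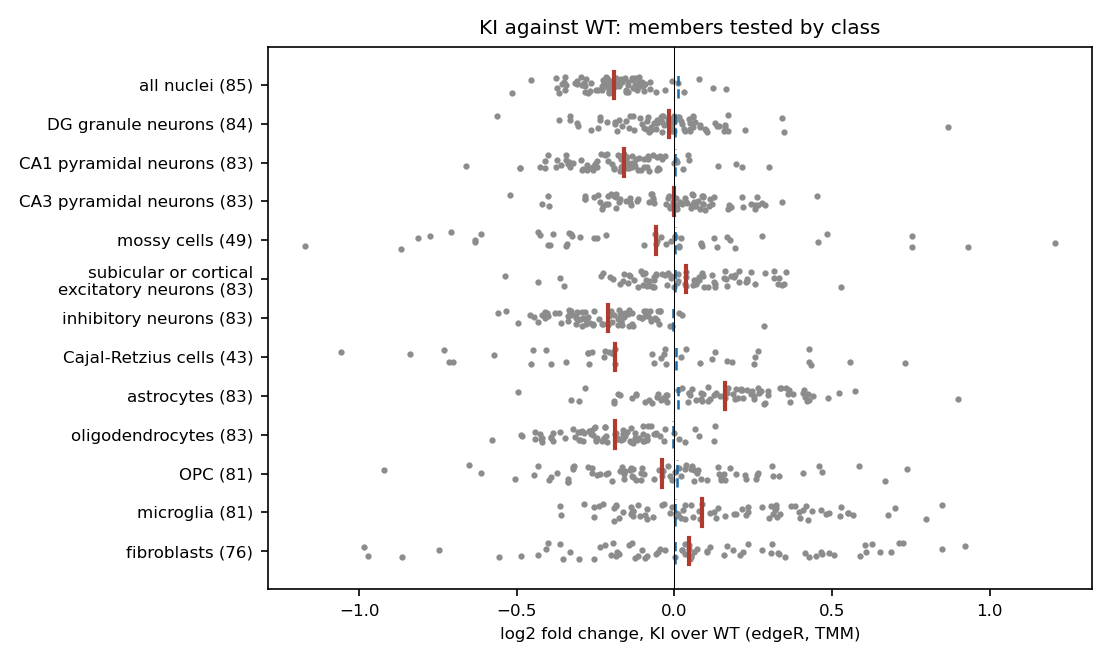
Log2 fold change of KI over WT for the ribosomal protein genes tested in all nuclei and in 12 classes, with 1 point per gene. Red bars are the medians of the members, blue dashes the medians of all genes tested and the number tested is in parentheses; the members' median is -0.19 in all nuclei, -0.21 in inhibitory neurons and 0.16 in astrocytes, and mural cells, with 2 members tested, are left out.

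In DG granule neurons the members were centred near 0. Of 84 tested, 0 were called where 9.75% of all genes were, DESeq2 called 0, and 2 had an unadjusted p under 0.05 against 29.2% of all genes. The median was -0.02 beside 0.00 over all genes, with 33 above 0 and 51 below. With 1 library left out the median ran from -0.13 to 0.07, and 21 members were called without KI replicate 2 (3 higher, 18 lower), where 47.3% of all genes were, and 4 without KI replicate 1 (1 higher, 3 lower), where 25.9% were. On library totals in place of TMM factors the median of all genes was itself -0.14 and that of the members -0.15. Both KI libraries were below both WT libraries in CPM for 35 of 84 members, where 43.1% of all genes were. Rpsa measured 59.7, 49.5, 24.6 and 43.5 CPM in WT replicates 1 and 2 and KI replicates 1 and 2 (-0.56, SE 0.244, edgeR adjusted p = 0.186), and KI replicate 1 was far below the other 3 libraries. Rpl12 had -0.37 and Rpl36al -0.33, while Rpl17 measured 47.8, 44.8, 56.9 and 50.2 CPM (0.35, SE 0.129, edgeR adjusted p = 0.137), Rps27 had 0.34 and Rpl24 0.22. Of other genes of ribosome production, 3 of 30 assembly factors were called in this class, a share near the 9.75% of all genes: Riok2, a kinase of late small-subunit maturation, was higher in KI (0.94, edgeR adjusted p = 0.0283), and the nucleolar helicase Ddx21 (-0.80, 0.0410) and the processome subunit Utp14a (-1.07, 0.0378) were lower.

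In CA1 pyramidal neurons most members were below 0. Of 83 members 0 were called, where 7.22% of all genes were, DESeq2 called 1 where it called 7.76% of all genes, and 8 had an unadjusted p under 0.05 against 26.7% of all genes. The median was -0.16 beside 0.00 over all genes, and 74 of 83 were below 0. For 54 of 83 members both KI libraries were below both WT libraries, where 37.4% of all genes were so. Rpsa measured 42.4, 35.7, 18.0 and 28.6 CPM in WT replicates 1 and 2 and KI replicates 1 and 2 (-0.66, SE 0.200, edgeR adjusted p = 0.0928), and it was the member called by DESeq2 (adjusted p 0.0493). Rps26 had -0.49 (SE 0.217) and Rpl35 -0.49 (SE 0.162), both with KI below WT. Rps18, Rps12 and Rpl17 had the highest values, 0.30, 0.21 and 0.19, with overlapping genotypes. Without KI replicate 2, 38 of 85 members were called (5 higher, 33 lower), where 44.1% of all genes were, and without KI replicate 1, 10 of 84 were called, all lower, where 26.2% were, while without either WT library 0 were called.

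In CA3 pyramidal neurons the members were evenly spread, with a median of 0.00 (-0.12 to 0.069 with 1 library left out), 42 above 0 and 41 below. None of 83 was called, where 2.5% of all genes were, DESeq2 called 0, and 4 had an unadjusted p under 0.05 against 21.1% of all genes. Rpl29 measured 18.7, 17.4, 10.9 and 12.95 CPM in WT replicates 1 and 2 and KI replicates 1 and 2 (-0.52, SE 0.184, edgeR adjusted p = 0.163). Rps27 measured 26.3, 27.95, 38.8 and 30.7 CPM (0.45, SE 0.174, edgeR adjusted p = 0.191). Neither gene overlapped between genotypes, and they lay on opposite sides. For 19 of the 83 members both KI libraries were below both WT libraries in CPM, where 34.8% of all genes were. Rpl21 had -0.42 and Rpsa -0.40, and Rpl37a had 0.34 and Rps27a 0.29. Without KI replicate 2, 13 of 83 members were called (2 higher, 11 lower), where 33.3% of all genes were, and without KI replicate 1, 3 were (2 higher, 1 lower), where 11.8% were.

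Inhibitory neurons had the lowest median of the larger classes, -0.21 beside 0.00 over all genes, with 80 of 83 members below 0. None was called where 1.23% of all genes were, DESeq2 called 0, and 12 had an unadjusted p under 0.05 against 19.7% of all genes. For 68 of 83 members both KI libraries were below both WT libraries, where 37.5% of all genes were so. Rpl7 measured 28.7, 23.0, 15.9 and 16.7 CPM in WT replicates 1 and 2 and KI replicates 1 and 2 (-0.56, SE 0.181, edgeR adjusted p = 0.149). Rpsa measured 41.0, 41.9, 21.6 and 31.5 (-0.53, SE 0.175, edgeR adjusted p = 0.153), and Rpl10a had -0.50. In all 3 the genotypes did not overlap. Rps27 was the highest again, with 40.3, 41.4, 50.7 and 41.7 CPM (0.29, SE 0.152), ahead of Rpl22l1 (0.025) and Rpl36 (0.01). Without WT replicate 1 the median was -0.13. Without KI replicate 2, 27 of 83 members were called (1 higher, 26 lower), where 29% of all genes were, and without KI replicate 1, 2 were called, both lower, where 8.28% were.

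Astrocytes and oligodendrocytes are given side by side, and a difference between them was not tested. In astrocytes 61 of 83 members were above 0, with a median of 0.16 beside 0.01 over all genes, while in oligodendrocytes 77 of 83 were below 0, with a median of -0.19 beside 0.00. None was called in either, where 0.148% and 0.75% of all genes were, DESeq2 called 0 in both, and 3 members in each had an unadjusted p under 0.05, against 11.4% and 14.2% of all genes. Both KI libraries were above both WT libraries in CPM for 17 of 83 members in astrocytes, where 18.9% of all genes were, and below them for 30 of 83 in oligodendrocytes, where 27.2% were. Without WT replicate 2 the astrocyte median was -0.03 and without WT replicate 1 it was 0.36, and without WT replicate 1 the oligodendrocyte median was 0.02. The signs in both classes thus rested on 1 WT library. In astrocytes, 2 mitochondrially encoded genes, mt-Atp6 and mt-Cytb, were called higher in KI, and the part of this in the ribosomal protein values was not tested.

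Rps21, a small-subunit protein, had the highest fold change of the members in astrocytes, with 157 and 125 CPM in WT replicates 1 and 2 and 284 and 227 in KI replicates 1 and 2. Both KI libraries were above both WT libraries, by 0.90 on the log2 scale (SE 0.220) at an edgeR adjusted p of 0.121. Rps27a measured 160, 111, 199 and 192 CPM (0.57, SE 0.224, edgeR adjusted p = 0.342), and Rpl35 had 0.52. Rpl18 (-0.30), Rps19bp1 (-0.33) and Rps27l (-0.50, SE 0.514) were the lowest. In oligodendrocytes Rps6, the small-subunit protein phosphorylated downstream of mTOR, measured 76.1, 55.9, 40.02 and 46.2 CPM (-0.58, SE 0.207, edgeR adjusted p = 0.252). Rpl15 (-0.49) and Rpl36al (-0.48) also had both KI libraries below both WT libraries, and Rpl39, Rps27l and Rps27, at 0.13, 0.12 and 0.08, overlapped.

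The other classes had medians on both sides of 0. The median over members was -0.04 in OPC (81 tested, 1% of all genes called), 0.09 in microglia (81 tested, 0%), -0.06 in mossy cells (49 tested, 0.756%), 0.04 in subicular or cortical excitatory neurons (83 tested, 0.141%), -0.19 in Cajal-Retzius cells (43 tested, 0.033%) and 0.05 in fibroblasts (76 tested, 0%). In each of these 6 classes the median lay on both sides of 0 when libraries were left out in turn. The median in mossy cells was -0.16 on library totals, -0.33 on sums thinned to equal depth and -0.23 to 0.014 with 1 library left out, and in Cajal-Retzius cells it was -0.36 to 0.10 with 1 library left out. In OPC it was -0.15 to 0.12, in microglia -0.021 to 0.27, in subicular or cortical neurons -0.063 to 0.13 and in fibroblasts -0.27 to 0.31. In mural cells only 2 members passed the filter on low counts (0% of 470 genes called). No member was called in these 7 classes by edgeR or DESeq2, and those with an unadjusted p under 0.05 numbered 4, 2, 4, 0, 2, 1 and 0 in the order given, against 12.2%, 6.29%, 12.6%, 12.3%, 7.19%, 6.5% and 7.87% of all genes.

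Whether the KI difference varied between classes was tested with a class by genotype term in a single edgeR fit with the library as a block. For DG granule neurons relative to CA1 neurons, 2 of 84 members were called, Rps21 and Rps27a, where 13.7% of 17126 genes were. Rps21 measured 77.1, 66.5, 59.5 and 73.6 CPM in DG neurons of WT replicates 1 and 2 and KI replicates 1 and 2 and 56.1, 48.8, 35.7 and 37.4 in CA1 neurons. The genotypes overlapped in DG and did not in CA1, and the term was 0.44 on the log2 scale (SE 0.111, edgeR adjusted p = 0.0184). Rps27a measured 69.0, 63.1, 64.6 and 71.0 CPM in DG neurons and 52.3, 40.7, 36.8 and 37.2 in CA1 neurons, with a term of 0.40 (SE 0.113, edgeR adjusted p = 0.0338). In both genes KI relative to WT was higher in DG than in CA1 neurons. Neither was called without WT replicate 1 or without WT replicate 2 (adjusted p 0.193 and 0.233 for Rps21, 0.443 and 0.121 for Rps27a), nor with nuclei gated one by one on markers. The median term over members was 0.15. For DG granule neurons relative to oligodendrocytes 0 of 84 members were called, where 2.85% of 16097 genes were, with 9 at an unadjusted p under 0.05 and a median term of 0.21. This median was 0.10 without WT replicate 1, 0.31 without WT replicate 2, 0.10 on library totals and 0.39 with at least 1000 genes per nucleus.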

How the data were processed

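Nuclei of the hippocampus were sequenced with a droplet 3′ method in 4 libraries, 2 WT and 2 KI, each of 1 mouse. The deposited matrices hold raw UMI counts per gene and called barcode, made by the authors with Cell Ranger (7.0.1 in the file headers) on the mm10 build named in the labels. Whether intronic reads were counted is not given in the sources used here. Empty droplets were not analysed here. The study compared single nuclei, which are not replicates, so counts were summed per library and class here. No count was divided by gene length, and no free RNA was subtracted.

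Nuclei with at least 500 genes and under 5% mitochondrially encoded UMIs were kept, doublets were marked with Scrublet in scanpy 1.11.5 (expected rate 8%, score at most 0.25 kept), and 2000 variable genes, 30 components and Leiden resolution 0.5 gave the clusters, built without the ribosomal protein and mitochondrially encoded genes. A cluster was named where at least 3 markers and most of a class's list were raised 2-fold, a scoring rule set after the clusters were seen. Totals were 73009975 to 80913580 UMIs per library, so counting error is small for class sums and larger for single members in small classes.

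KI and WT sums were compared with edgeR 4.0.16 (TMM, filterByExpr, quasi-likelihood F test, Benjamini-Hochberg over all genes tested, adjusted p of 0.05), and with DESeq2 1.42.0 as an alternative. SDs are over libraries. The fits were first tested on simulated data. They recovered 64%, 70%, 55% and 52% of genes given a log2 fold change of 1 in all nuclei, DG neurons, oligodendrocytes and astrocytes. A comparison with 0 members called thus does not show that the members were unchanged. Labels place the samples in 1 batch, and nothing beyond 1 mouse per library is known of their handling. Named members were the 6 with the most UMIs, the 5 widest and 5 narrowest across classes, the stalk and ubiquitin-fusion members, paralog pairs, and, where no member was called, the 3 highest and 3 lowest fold changes at 10 CPM or more. Some values that these rules select are not reported here. The members, lists and these rules were chosen with earlier results of these data known. Alternatives were library totals, no low-count filter, DESeq2, a replicate block, each library left out, at least 1000 genes, no doublet removal, thinned sums and a gate on markers nucleus by nucleus. The gate and the left-out libraries for the class by genotype term were added after the data were seen.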

Additional observations from a re-analysis of the deposited data

Results flagged for a closer look

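The class by genotype term for DG granule relative to CA1 neurons was called for 2 of 84 members, Rps21 and Rps27a, where 13.7% of 17126 genes were called. The term was 0.44 on the log2 scale for Rps21 and 0.40 for Rps27a, and both KI libraries lay below both WT libraries in CA1 neurons while the genotypes overlapped in DG neurons. Neither was called without WT replicate 1, without WT replicate 2 or with nuclei gated one by one on markers. DG neurons of WT and KI were held mainly by different clusters, and the part of this in the terms was not tested.

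The 345 barcodes outside the filters, which enter no comparison between classes, held 40109 and 28023 ribosomal protein CPM in WT replicates 1 and 2 and 19393 and 17132 in KI replicates 1 and 2. All 4 values lay above the all-nuclei values of 2950 to 3877 CPM. The medians were 11.5, 12, 10 and 11 ribosomal protein UMIs per barcode in the same order, so the libraries differed little in the typical barcode. Ttr, a choroid plexus transcript, made up 49146 CPM in WT replicate 1 and 136 to 1775 CPM in the other 3 libraries, and its part in the value was not tested. With 2 libraries per genotype, no search for a single library standing apart within a genotype was possible.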

How the results depend on the processing

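Of the values that answer a comparison, 214 kept their direction and side of the threshold under an alternative and 13 moved, and with 1 library left out 106 kept them and 26 moved. Of single members' values, 316 kept their sign and side of the threshold, 9 changed sign, 6 passed the threshold only under the alternative and 2 lost it. With 1 library left out these numbers were 126, 12, 31 and 4. The cause of these changes was not tested.

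DESeq2 called 1 member in all nuclei (8.42% of all genes) and 1 in CA1 neurons (7.76%). Without the low-count filter 1 was called in DG neurons (13.6% of all genes), 1 in astrocytes (1.19%) and 1 in OPC (0.84%). The replicate numbers did not pair the samples (correlation of deviations 0.0265 over 21718 genes, 2 pairs), and a fit with the replicate block called 1 member in DG neurons (17.8% of all genes) and 1 in CA1 neurons (11.6%). On library totals the member median was -0.15 in DG neurons and -0.16 in mossy cells, and on thinned sums it was -0.33 in mossy cells. With nuclei gated one by one, 0 members had a called term for DG relative to CA1 neurons, the ratio of ribosomal protein CPM between classes was 3.62 in place of 4.79 and the makeup statistic was 3.12 in place of 4.27. The gate left out Cajal-Retzius cells, fibroblasts, mossy and mural cells, the minimum of 1000 genes left out mural cells and keeping doublets left out mossy cells, so these gave no value there. On library totals the sign changed for Rps18 in all nuclei (-0.025) and for Rpl36 (-0.093) and Rpl22l1 (-0.080) in inhibitory neurons. Rpl36 was -0.011 without the filter and -0.0017 at 1000 genes or more. In oligodendrocytes Rps27 was -0.068 and Rpl39 -0.075 at 1000 genes or more, and the gate gave -0.34 for Rps27l and -0.13 for Rpl39.

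With 1 library left out, members called ran from 0 to 11 in all nuclei, 0 to 21 in DG, 0 to 38 in CA1, 0 to 13 in CA3 and 0 to 27 in inhibitory neurons, 0 to 16 in oligodendrocytes, 0 to 1 in astrocytes, 0 to 1 in OPC and 0 to 4 in microglia. The highest count was without KI replicate 2 in each, where the shares of all genes called were 32.4%, 47.3%, 44.1%, 33.3%, 29%, 19.5%, 4.08%, 5.74% and 10.8% in the same order, and the lone library was then assumed to vary like the WT pair. Without KI replicate 2 the calls over all genes also grew, to 3431 higher and 3765 lower in all nuclei from 110 and 83, and DESeq2 called 973 and 856. Member terms called ran from 0 to 10 for DG relative to CA1 neurons and from 0 to 7 relative to oligodendrocytes, the highest again without KI replicate 2, where 21.1% and 13.5% of all genes were called. Member medians ran from -0.33 to -0.049 in all nuclei, -0.13 to 0.07 in DG, -0.25 to -0.05 in CA1 and -0.33 to -0.13 in inhibitory neurons, -0.23 to 0.014 in mossy, -0.36 to 0.10 in Cajal-Retzius and -0.84 to 0.20 in mural cells, -0.03 to 0.36 in astrocytes and -0.38 to 0.02 in oligodendrocytes. In all nuclei Rps18 ran from -0.10 to 0.13, Rpl17 from -0.070 to 0.19 and Rps27 from -0.055 to 0.33. In inhibitory neurons Rpl36 ran from -0.059 to 0.065 and Rpl22l1 from -0.15 to 0.19, and in oligodendrocytes Rps27 from -0.12 to 0.20, Rps27l from -0.15 to 0.57 and Rpl39 from -0.12 to 0.49. Depth limits single members in mural cells most, where 20 to 30 nuclei per library gave 2 members past the filter.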
